A study of Saccharomyces cerevisiae with 12 samples.

Results

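The ATG genes are the yeast genes named for their part in autophagy, and the 31 described here are the protein-coding genes of the deposited table whose name is ATG followed by a number and nothing else. The rule uses the name alone, out of 6692 protein-coding genes and 7126 genes in all, but it was set with earlier results of these data known. Transcripts were sequenced from Saccharomyces cerevisiae BY4741, a laboratory strain that cannot make its own histidine, leucine, methionine or uracil. The 4 groups were slt2 mutant cells with poacic acid (100 µg/ml for 1 h), untreated slt2 mutant cells, wild-type cells with the same poacic acid treatment, and untreated wild-type cells, with 3 libraries each (n = 3). Poacic acid, written poacid acid in the labels, is a plant compound that binds the glucan of the fungal cell wall, and Slt2 is the MAP kinase of the cell wall integrity pathway. All cultures were diluted to an OD of 0.2 and taken to an OD of 0.5 before the treatment, and the labels describe the replicates of a strain as separate biological samples that were each run without and with the compound. The labels give only the word slt2 for the mutant genotype, name no allele, and do not say whether it was 1 clone. They name a 2 h growth step beside the 1 h treatment, and whether untreated cells were collected at the same age as treated ones is not given in the sources used here. The design asks how cells with and without Slt2 respond to the compound.

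Autophagy carries cytoplasm and organelles to the vacuole, the lytic compartment of the yeast cell, inside double-membraned vesicles. The Atg1 kinase complex starts the process, Atg9 vesicles and Atg2 supply membrane, a phosphatidylinositol 3-kinase marks it, and 2 ubiquitin-like proteins, Atg8 and Atg12, are attached to lipid and to Atg5 so that the vesicle can grow around its cargo. In growing cells much of the same machinery serves the Cvt pathway, which brings the precursor of aminopeptidase I to the vacuole, and several ATG genes are known to be transcribed more when nutrients run out.

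The files held RPKM, read counts scaled to gene length and to library size, so levels can be compared between genes of different length. By coding length, 99.7% of the genes above 0 held whole multiples of 1 read (within 1% of a read), and this gave totals of 3462651 to 7692204 reads in slt2 cells with poacic acid, 4825369 to 7982302 in untreated slt2 cells, 5456607 to 10542488 in wild-type cells with poacic acid and 5584293 to 10532087 in untreated wild-type cells. For a gene 1 kilobase long, 3 reads correspond to 0.285 to 0.866 RPKM depending on the library, a detection limit for counting error only. SLT2 had 0, 1 and 1 reads in slt2 cells with poacic acid, 0 reads in each untreated slt2 library, 194, 199 and 236 RPKM in wild-type cells with poacic acid and 42.1, 45.8 and 49.99 RPKM in untreated wild-type cells, so no library went against its strain label. Of the reads in listed genes, rRNA genes held 5.99 to 6.29% in slt2 cells with poacic acid and 4.87 to 6.65% in untreated slt2 cells. In wild-type cells they held 0.105 to 5.15% with poacic acid and 0.0928 to 0.742% untreated. That share therefore moves with the strain among untreated cells. Treated wild-type replicates 1 to 3 held 2.67, 0.105 and 5.15%, so it also varied between replicates, and the highest lay within the range of untreated slt2 cells. Its part in the strain differences and in the wild-type response was not tested beyond a fit that held it as a covariate. In such bulk libraries a change in RNA per cell and a change in the make-up of the culture cannot be told apart.

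ATG transcripts were scarce in these cells. The median of the 31 mean levels was 9.69 RPKM, against 21.3 RPKM over all coding genes, and 27 of the 31 lay below that coding median. The most abundant was ATG27, whose membrane protein helps to move Atg9, at a mean of 79.1 RPKM over all 12 libraries. It was followed by ATG15 (34.2 RPKM), which encodes the vacuolar lipase that breaks down autophagic bodies, ATG19 (32.0 RPKM), the cargo receptor of the Cvt pathway, and ATG18 (30.2 RPKM), a phosphoinositide-binding protein. ATG5, ATG33, ATG22, ATG26 and ATG20 averaged 16.8 to 21.2 RPKM. ATG8 (14.8 RPKM), ATG21 (14.5), ATG13 (13.4), ATG23 (12.01), ATG3 (11.8) and ATG1 (11.5) formed the next group. ATG32, ATG2, ATG31, ATG4, ATG36, ATG38, ATG7, ATG12, ATG9 and ATG11 lay between 7.06 and 9.69 RPKM, and ATG16, ATG17, ATG14, ATG29 and ATG34 between 4.34 and 5.08 RPKM. ATG10, the E2-like enzyme that attaches Atg12, was lowest at 1.68 RPKM, which rests on 1 to 11 reads a library. The ranges over libraries of neighbours in this order overlapped, except that the lowest ATG27 library (57.3 RPKM) lay above the highest ATG15 library (52.5 RPKM). ATG16, ATG29 and ATG34 overlap another listed gene on the other strand (YMR158W-B, SET6 and YOL083C-A), and whether reads were counted by strand is not given in the sources used here, so those 3 levels are uncertain.

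**Figure D1:**
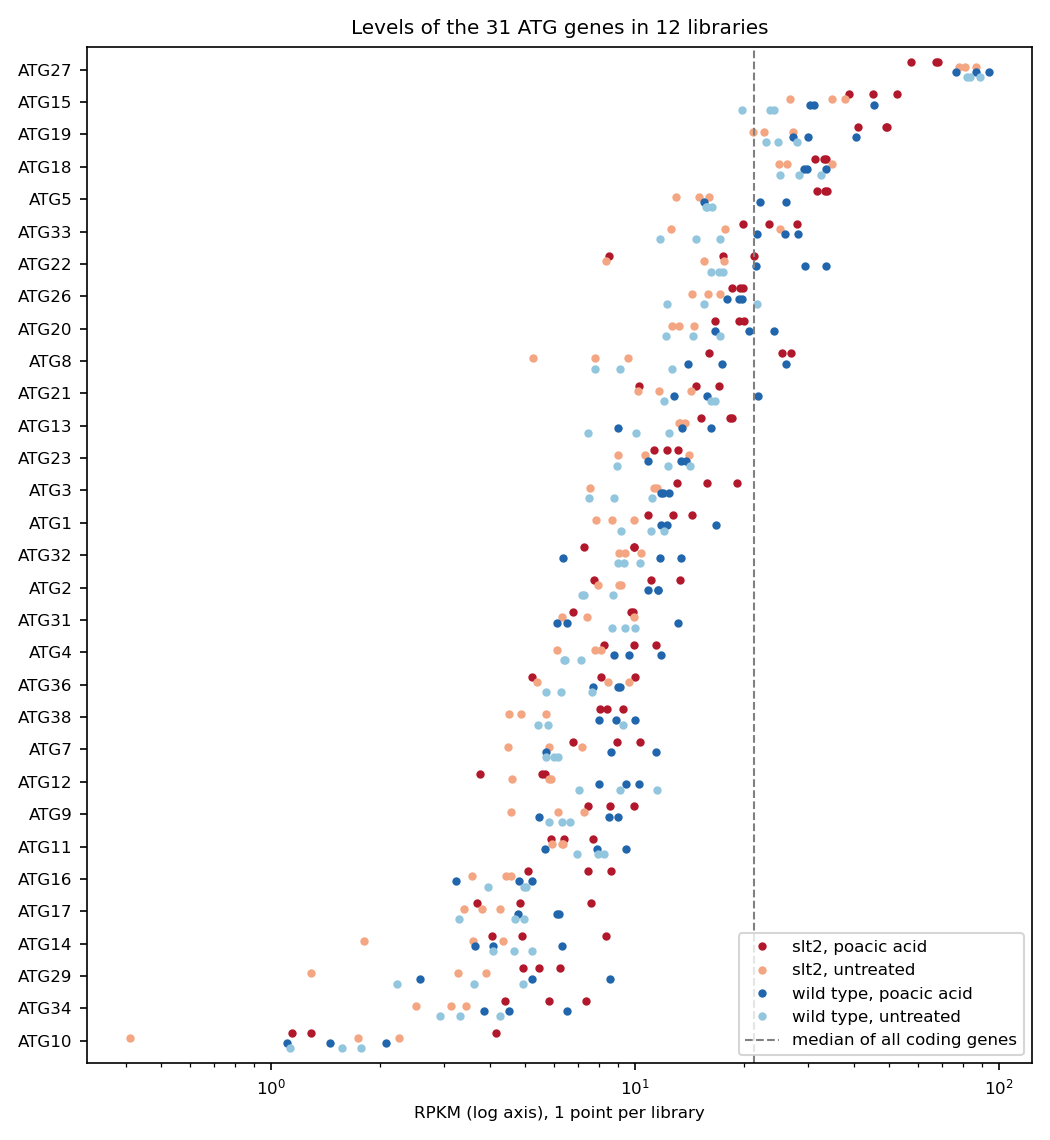
RPKM of the 31 ATG genes on a log axis, 1 point per library, coloured by group and ordered by mean level; the dashed line is the median of all coding genes (21.3 RPKM). ATG27 stands alone at the top with a mean of 79.1 RPKM, ATG10 at the bottom with 1.68 RPKM, and 27 of 31 means lie left of the line.

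In slt2 cells poacic acid raised ATG8, ATG5 and ATG19 and lowered no ATG gene past the threshold. ATG8 encodes the ubiquitin-like protein that coats the autophagosome membrane, ATG5 the protein joined to Atg12 in the complex that helps to attach Atg8 to lipid, and ATG19 the Cvt receptor. Their fitted log2 changes, on log2(RPKM + 1), were 1.47, 1.12 and 0.95. These 3 of 31 genes stand against a background of 8.45% of all 6222 tested genes called in either direction at an adjusted p of 0.05, 5.29% called higher and 3.17% called lower. The share of ATG genes called is thus near the background. The sign of the change was less near to it, as 27 of the 31 ATG genes had a log2 change above 0 where 54.9% of all tested genes did, and the median change was 0.38 for the ATG genes and 0.03 for all tested genes. In 15 ATG genes every treated slt2 library lay above every untreated one (18.2% of all tested genes), and in 1 gene, ATG27, every treated library lay below (12.8%).

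ATG8 (R64 chrII:80378-80731, minus strand) had 25.3, 26.9 and 16.04 RPKM in slt2 cells with poacic acid, against 7.79, 9.60 and 5.27 RPKM in untreated slt2 cells. Replicate 3 was the lowest of its group in both, and the groups did not overlap. The log2 change of 1.47 (SE 0.268) passed the test (limma adjusted p = 0.00385) and was the largest among the ATG genes, on 9 to 69 reads per slt2 library for this short gene.

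ATG5 (chrXVI:271310-272194, plus strand) had 31.7, 33.3 and 33.8 RPKM in slt2 cells with poacic acid, against 15.996, 13.0 and 15.0 RPKM in untreated slt2 cells. Both groups were tight and far apart, with means of 32.9 ± 1.1 and 14.7 ± 1.5 RPKM (SD, n = 3 each). The log2 change was 1.12 (SE 0.161, limma adjusted p = 0.000655).

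ATG19 (chrXV:168727-169974, plus strand) had 49.1, 49.5 and 41.1 RPKM in slt2 cells with poacic acid, against 27.2, 22.7 and 21.1 RPKM in untreated slt2 cells. The groups did not overlap, and the log2 change was 0.95 (SE 0.158, limma adjusted p = 0.00197). All 3 genes kept their call in each of the 20 other ways of fitting the data.

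Short promoter stretches of ATG8 and ATG19 are shown because these 2 genes that rose hold, within 500 bases before the start codon, the core of URS1 (GCCGCC), the element through which Ume6 is known to repress ATG8 in rich medium. They were the only ATG genes that hold it. Each stretch is 30 bases of the R64 genome from RefSeq, written 5′ to 3′ on the strand of the gene, with the matched letters in capitals; in both the match lies on the opposite strand, so that it reads GGCGGC.
ATG8, chrII:80844-80873, minus strand, 130 bases before the start codon: gttattttcggcGGCGGCaaaaatatttgg
ATG19, chrXV:168672-168701, plus strand, 43 bases before the start codon: cgaggtaattgcGGCGGCacttgcttcagt
In ATG8 a second match overlaps the first, 133 bases before the start codon. The same genes also hold the stress response element AGGGG, which Msn2 and Msn4 bind, at 2 places in ATG8 and 1 in ATG19.
ATG8, chrII:80805-80834, minus strand, 91 bases before the start codon: ggaaatacaaaaAGGGGaaccattaaaggt
ATG8, chrII:80782-80811, minus strand, 68 bases before the start codon: taaaggttgaggAGGGGattgataagagaa
ATG19, chrXV:168545-168574, plus strand, 170 bases before the start codon: atgacccggaaaAGGGGcgtgtgacattgc
ATG5, the third gene that rose, held none of the 6 motifs searched in its 500 bases.

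Over all 31 ATG genes and both strands, AGGGG was present before 15 (48.4%, against 33.7% of 6659 coding genes with windows of the same length) and GCCGCC before 2 (6.45% against 9.49%). Those 15 include ATG12, ATG27 and ATG32, whose log2 changes in slt2 cells lay below 0, while ATG36, also below 0, holds no AGGGG. The Gcn4 site TGACTC was present before 7 ATG genes (22.6% against 13.0%), and GATAAG, the letters bound by the GATA factors of nitrogen control, before 12 (38.7% against 22.6%). The calcineurin-dependent element GNGGCTG was present before 1, ATG36 (3.23% against 10.4%), and the site of Rlm1, the transcription factor downstream of Slt2, before 0 (1.76% of coding genes). In ATG8 the GATAAG match lies 60 bases before the start codon, within the second AGGGG stretch printed above, and no match of one motif in ATG8 or ATG19 overlaps a match of another. These matches describe letters only, and some windows reach into a neighbouring gene.

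**Figure D2:**
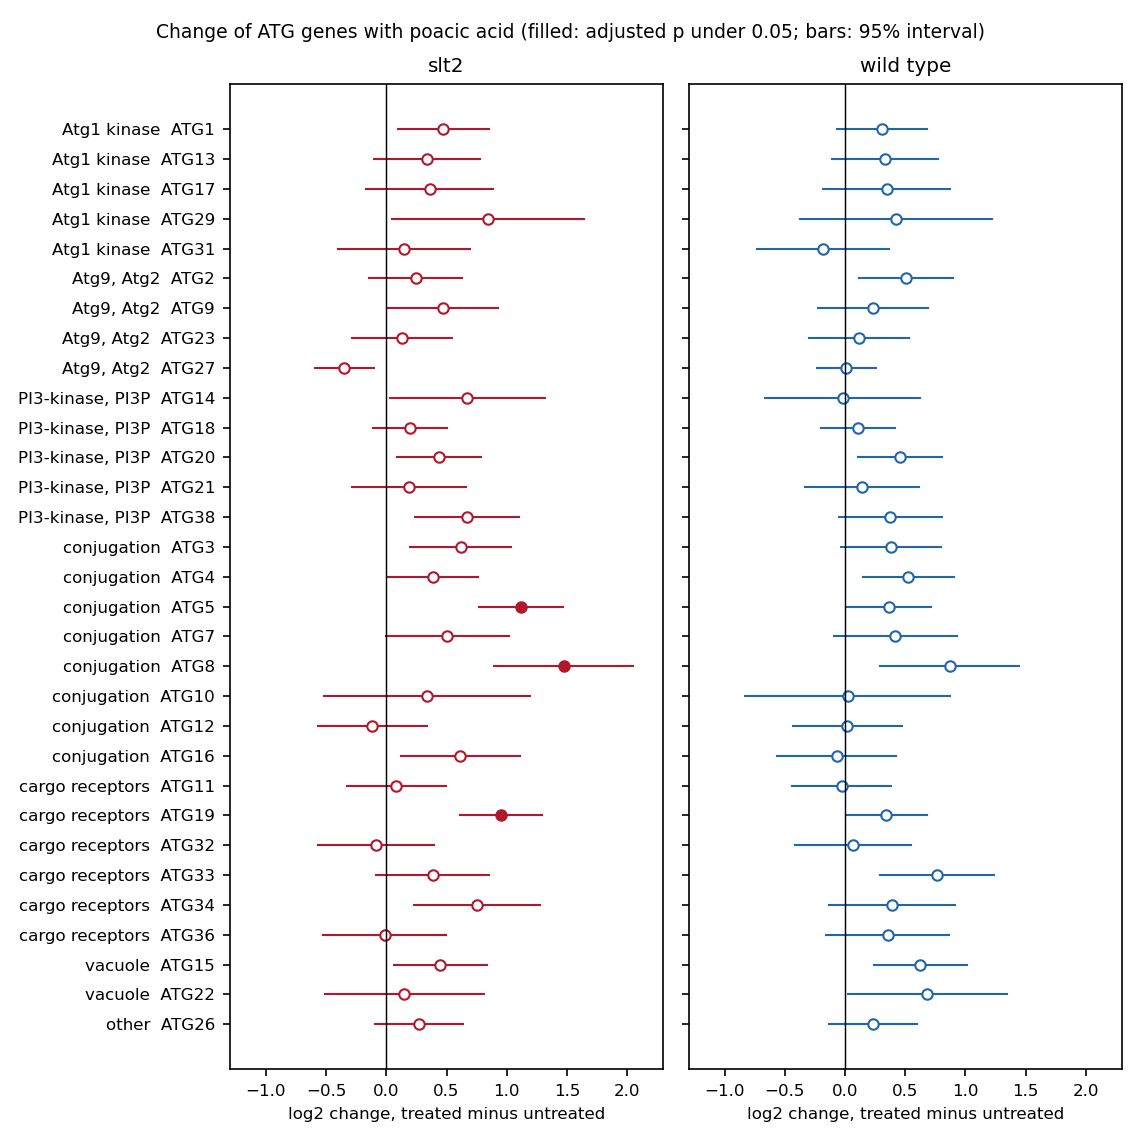
Log2 change with poacic acid (treated minus untreated, on log2(RPKM + 1)) of each ATG gene, grouped by role, in slt2 cells (left) and wild-type cells (right); points are fitted changes, bars 95% intervals, and filled points passed an adjusted p of 0.05. ATG5, ATG8 and ATG19 are filled in slt2 cells, none is filled in wild-type cells, and 27 of 31 points lie right of 0 in each strain. The fit shown did not pair the libraries of a biological sample.

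By role, the 5 genes of the Atg1 kinase complex all had changes above 0 in slt2 cells, with a median log2 change of 0.36, and 0 of 5 passed. ATG1, the kinase (chrVII:160065-162758), had 14.4, 12.8 and 10.9 RPKM in slt2 cells with poacic acid, against 9.95, 8.65 and 7.85 RPKM in untreated slt2 cells. The groups did not overlap, and the log2 change was 0.47 (SE 0.174, adjusted p = 0.120). ATG13, its regulatory subunit, averaged 17.3 ± 1.9 and 13.4 ± 0.24 RPKM in the same groups, again without overlap, and ATG29, a scaffold subunit, 5.55 ± 0.64 and 2.82 ± 1.4 RPKM. ATG17, the other scaffold gene, averaged 5.36 and 3.82 RPKM and ATG31 8.81 and 7.89 RPKM in slt2 cells with and without the compound, with overlapping libraries.

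Among the 4 genes of Atg9 vesicles and Atg2, 0 passed in slt2 cells and the directions were mixed. ATG9, the only membrane-spanning protein of the core machinery (chrIV:184925-187918), had 8.55, 9.94 and 7.45 RPKM in slt2 cells with poacic acid, against 7.28, 6.16 and 4.57 RPKM in untreated slt2 cells. The treated libraries all lay above the untreated ones, by a narrow gap (log2 change 0.47, SE 0.213, adjusted p = 0.208). ATG27 (chrX:89282-90097, minus strand) had 67.2, 57.3 and 68.1 RPKM in slt2 cells with poacic acid, against 86.9, 78.0 and 80.8 RPKM in untreated slt2 cells. It was the member with the lowest change and the treated libraries all lay below, but the log2 change of −0.35 (SE 0.115) did not pass (adjusted p = 0.0801). With another scaling, by median ratios, it did (adjusted p = 0.0340). ATG2, which transfers lipid, and ATG23 averaged 10.7 and 12.2 RPKM in slt2 cells with poacic acid, against 8.72 and 11.2 RPKM in untreated slt2 cells.

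All 5 genes of the phosphatidylinositol 3-kinase and phosphoinositide-binding group had changes above 0 in slt2 cells (median log2 change 0.44), and 0 passed. ATG38, a subunit of the kinase complex, came closest, with 8.40, 8.06 and 9.27 RPKM in slt2 cells with poacic acid, against 5.70, 4.52 and 4.87 RPKM in untreated slt2 cells (log2 change 0.67, SE 0.199, adjusted p = 0.0537). It passed with median-ratio scaling (adjusted p = 0.0401), with only the slt2 groups (0.0408), with plain variances (0.0406), with the rRNA share as a covariate (0.0358), and without treated wild-type replicate 2 or 3 or untreated wild-type replicate 3. ATG14, which directs the kinase to autophagy, averaged 5.78 and 3.25 RPKM in those groups. ATG20, a sorting nexin, averaged 18.6 and 13.5 RPKM, and the phosphoinositide-binding proteins ATG18 and ATG21 had log2 changes of 0.20 and 0.19.

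The conjugation group held 2 of the 3 genes that rose, and 7 of its 8 genes had a change above 0 (median log2 change 0.56). ATG3, the E2-like enzyme that attaches Atg8 to lipid, had 19.1, 15.8 and 13.1 RPKM in slt2 cells with poacic acid, against 11.5, 11.3 and 7.55 RPKM in untreated slt2 cells, and missed the threshold (log2 change 0.62, SE 0.194, adjusted p = 0.0674). ATG16, which links Atg5 and Atg12 to membrane, averaged 7.05 and 4.19 RPKM, ATG7, the E1-like enzyme, 8.69 and 5.83 RPKM, and ATG4, the protease that processes Atg8, 9.89 and 7.32 RPKM in slt2 cells with and without the compound. ATG12 was the exception, at 5.56, 5.66 and 3.75 RPKM in slt2 cells with poacic acid, against 5.81, 4.62 and 5.91 RPKM in untreated slt2 cells. Its groups overlapped (log2 change −0.12, SE 0.212, adjusted p = 0.814).

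Among the 6 genes of cargo recognition 1 rose, ATG19, and the median log2 change in slt2 cells was 0.23. ATG34, a relative of ATG19 that carries alpha-mannosidase, had 7.34, 5.83 and 4.41 RPKM in slt2 cells with poacic acid, against 3.44, 3.14 and 2.51 RPKM in untreated slt2 cells (log2 change 0.75, SE 0.244, adjusted p = 0.0756). The mitophagy receptor ATG32 averaged 9.08 and 9.61 RPKM, the pexophagy receptor ATG36 7.79 and 7.83 RPKM, and the scaffold ATG11 6.65 and 6.19 RPKM in slt2 cells with and without the compound. ATG33, a mitochondrial protein of mitophagy, averaged 23.7 ± 4.1 and 18.5 ± 6.3 RPKM. Neither vacuolar gene passed, with ATG15 at 45.4 ± 6.9 RPKM in slt2 cells with poacic acid and 33.1 ± 5.8 RPKM in untreated slt2 cells, and ATG22, an exporter of amino acids from the vacuole, at 15.7 ± 6.6 and 13.8 ± 4.9 RPKM. ATG26, a sterol glucosyltransferase, averaged 19.3 and 15.8 RPKM.

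The count of 3 was sensitive to the fit. It was 5 with the biological sample as a block, which added ATG3 and ATG15, and 5 without replicate 3 of slt2 cells with poacic acid, which added ATG3 and ATG34. Calls over all tested genes moved too, from 526 to 671 without that replicate and to at most 711 in the fits that left out no library.

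In wild-type cells no ATG gene passed the threshold with poacic acid in the fit by group means, while 5.83% of all tested genes did. This fit did not pair the libraries of a biological sample. With that sample as a block, 4 ATG genes and 671 of all tested genes passed. By group means there were 9 ATG genes at an unadjusted p under 0.05, all higher with the compound. Of all tested genes, 21.5% reached that p in either direction. Again 27 of 31 changes lay above 0 (53.5% of all tested genes), with a median log2 change of 0.34 against 0.02 for all tested genes. Leaving out 1 library, that count ran from 22 to 29 and the ATG median from 0.21 to 0.41. For slt2 cells they ran from 24 to 28 and from 0.32 to 0.51. In 8 ATG genes every treated wild-type library lay above every untreated one (13.2% of all tested genes), namely ATG2, ATG3, ATG4, ATG8, ATG15, ATG22, ATG33 and ATG36, and in 0 every treated one lay below (9.39%).

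**Figure D3:**
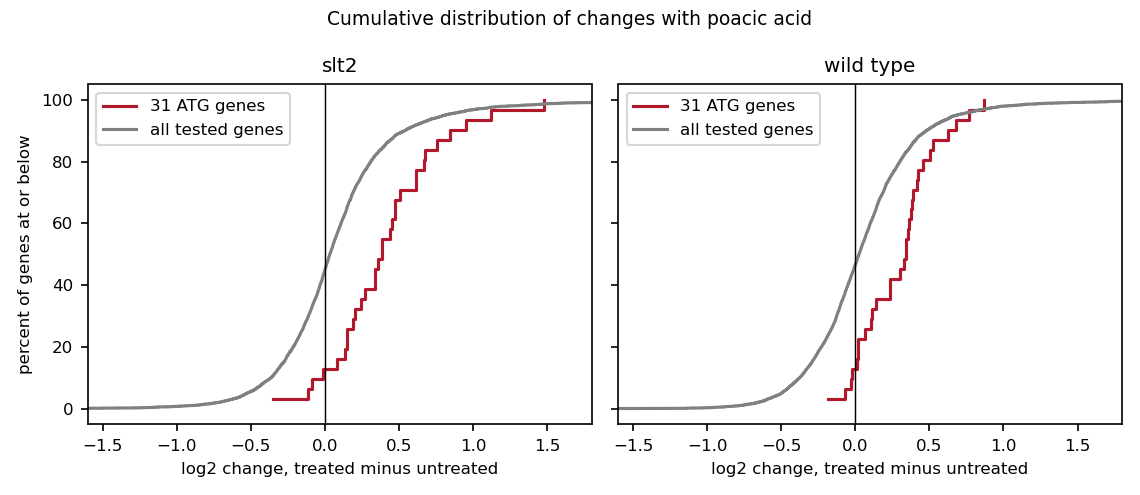
Cumulative share of genes at or below a given log2 change with poacic acid (treated minus untreated) for the 31 ATG genes (red) and all 6222 tested genes (grey), in slt2 cells (left) and wild-type cells (right). At the middle of the distribution the ATG curve lies right of the grey one, with ATG medians of 0.38 (slt2) and 0.34 (wild type) against 0.03 and 0.02, while the largest changes of all genes exceed the ATG maxima of 1.47 and 0.87.

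ATG8 was also the ATG gene with the largest change in wild-type cells. It had 14.0, 26.0 and 17.3 RPKM with poacic acid, against 7.78, 9.11 and 12.7 RPKM untreated, in wild-type cells. The groups did not overlap, but treated replicate 1 was close to untreated replicate 3, and the log2 change of 0.87 (SE 0.268) did not pass (adjusted p = 0.0757). With the biological sample as a block it did (adjusted p = 0.0172).

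The 2 vacuolar genes had larger changes in wild-type cells than most ATG genes. ATG15 (chrIII:237214-238776, plus strand) had 31.2, 30.4 and 45.4 RPKM in wild-type cells with poacic acid, against 23.6, 19.7 and 24.2 RPKM in untreated wild-type cells. Treated replicate 3 stood above its group, which otherwise lay just above the untreated one (log2 change 0.62, SE 0.180, adjusted p = 0.0588). ATG22 (chrIII:54941-56527, minus strand) had 21.6, 33.7 and 29.5 RPKM in wild-type cells with poacic acid, against 17.1, 16.2 and 17.5 RPKM in untreated wild-type cells, and did not pass either (log2 change 0.68, SE 0.306, adjusted p = 0.218). ATG33 (chrXII:840321-840914, plus strand), singled out after its values were seen, had 25.9, 21.7 and 28.2 RPKM in wild-type cells with poacic acid, against 14.7, 11.8 and 17.1 RPKM in untreated wild-type cells. The groups were apart (log2 change 0.77, SE 0.219, adjusted p = 0.0576).

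ATG5 and ATG19, called in slt2 cells, overlapped between the wild-type groups. ATG5 had 15.5, 26.0 and 22.1 RPKM in wild-type cells with poacic acid, against 16.3, 15.8 and 15.7 RPKM in untreated wild-type cells, treated replicate 1 lying below all untreated ones (log2 change 0.36, SE 0.161, adjusted p = 0.211). ATG19 had 27.3, 40.5 and 29.97 RPKM in wild-type cells with poacic acid, against 24.8, 23.0 and 27.9 RPKM in untreated wild-type cells (log2 change 0.34, SE 0.158, adjusted p = 0.228).

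ATG1 and ATG9, the kinase and the membrane protein, did not pass in wild-type cells. ATG1 had 11.8, 16.7 and 12.3 RPKM with poacic acid, against 9.16, 12.03 and 11.1 RPKM untreated, in wild-type cells (log2 change 0.30, SE 0.174, adjusted p = 0.340). ATG9 had 5.45, 9.03 and 8.49 RPKM with poacic acid, against 6.31, 5.80 and 6.63 RPKM untreated, in wild-type cells (log2 change 0.23, SE 0.213, adjusted p = 0.586). ATG31 (chrIV:488072-488662, minus strand) had the lowest change, with 6.51, 13.2 and 6.14 RPKM in wild-type cells with poacic acid, against 8.68, 9.999 and 9.40 RPKM in untreated wild-type cells (log2 change −0.18, SE 0.255, adjusted p = 0.744). Its treated libraries lay on both sides of the untreated ones. ATG12 had 9.47, 10.3 and 7.96 RPKM with poacic acid, against 9.14, 7.02 and 11.6 RPKM untreated, in wild-type cells, and ATG27 had 86.5, 94.2 and 76.5 RPKM against 82.1, 83.4 and 88.8 RPKM; their log2 changes were 0.02 and 0.01.

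With the biological sample as a block, 4 ATG genes passed in wild-type cells (ATG8, ATG15, ATG22 and ATG33), all higher with the compound. In that fit 671 of all 6222 tested genes passed, against 363 without the block. Without the block, ATG33 passed without untreated slt2 replicate 1, ATG15 and ATG33 passed without untreated slt2 replicate 3 or without treated wild-type replicate 2, and ATG5 passed without treated wild-type replicate 1.

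**Figure D4:**
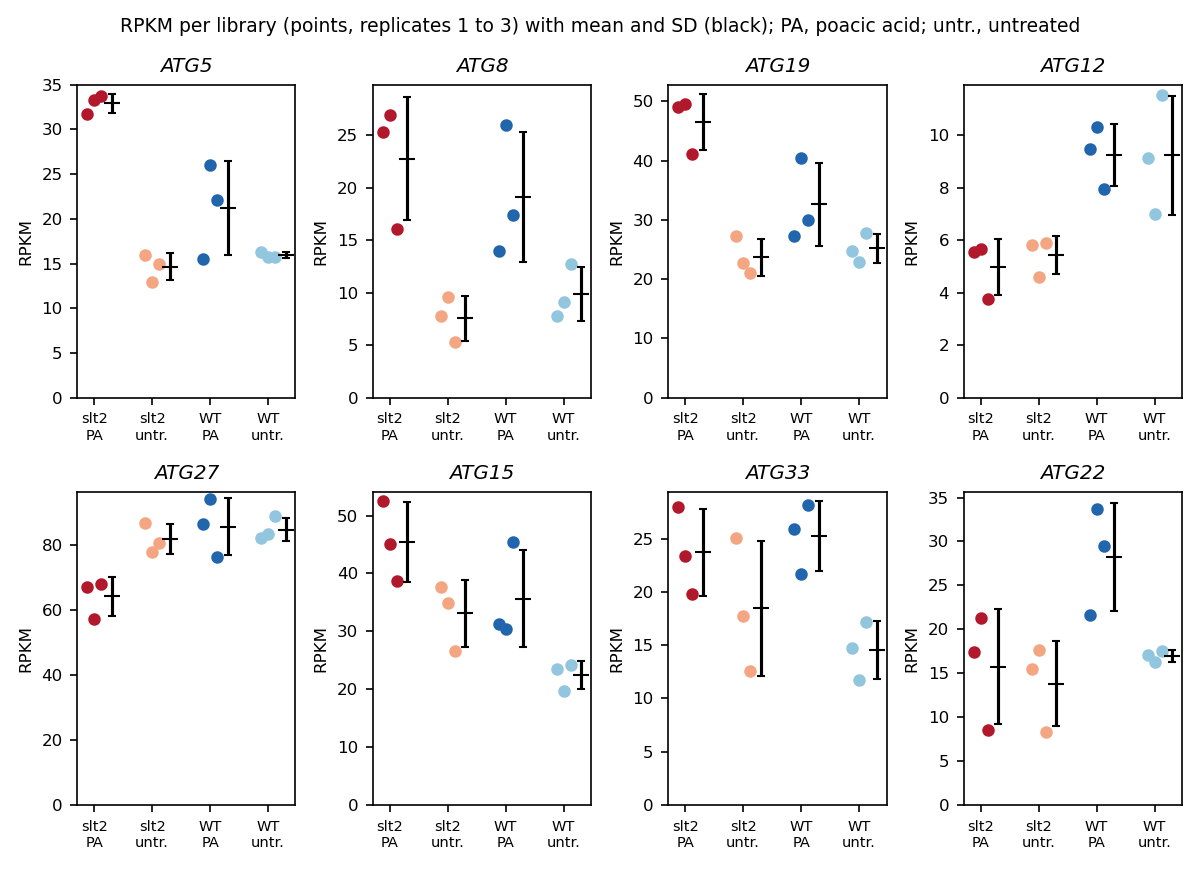
RPKM of 8 ATG genes in each library (points, replicates 1 to 3 from left to right within a group) with group mean and SD in black; PA, poacic acid; untr., untreated. ATG5, ATG8 and ATG19 are highest in slt2 cells with poacic acid (means 32.9, 22.8 and 46.6 RPKM), and ATG12 and ATG27 are lowest there (4.99 and 64.2 RPKM).

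The responses of the ATG genes were not shown to differ between the strains. In the test of the slt2 response minus the wild-type response, 0 of 31 ATG genes passed (1.72% of all tested genes did), and 3 had an unadjusted p under 0.05 (11.9% of all tested genes). ATG5 had the largest difference, 0.76 on the log2 scale (SE 0.228, 95% interval 0.27 to 1.25, adjusted p = 0.132), and it passed without treated wild-type replicate 2 (adjusted p = 0.0375). ATG19 followed the same direction at 0.61 (SE 0.223, adjusted p = 0.265), and ATG27 the other at −0.36 (SE 0.162, adjusted p = 0.396). ATG22 had the lowest difference, −0.53 (SE 0.432, 95% interval −1.47 to 0.40, adjusted p = 0.689). For ATG8 the difference was 0.60 (SE 0.379), and its 95% interval of −0.21 to 1.42 holds both an equal response and one more than 1 log2 unit larger in slt2 cells. ATG1 and ATG9 differed by 0.17 (adjusted p = 0.840) and 0.24 (adjusted p = 0.810). Over the list, 21 of 31 differences lay above 0 (52.0% of all tested genes), with a median of 0.09 against 0.02 for all tested genes.

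Without the compound no ATG gene passed the test of untreated slt2 cells against untreated wild-type cells (1.75% of all tested genes did, 55 of them higher in slt2 cells and 54 lower, or 69 and 32 with median-ratio scaling), and 2 had an unadjusted p under 0.05 (24.3% of all tested genes). ATG12 (chrII:657832-658392, plus strand) had the lowest difference, at 5.81, 4.62 and 5.91 RPKM in untreated slt2 cells, against 9.14, 7.02 and 11.6 RPKM in untreated wild-type cells (log2 difference −0.65, SE 0.212, adjusted p = 0.102). All slt2 libraries lay below all wild-type ones. ATG15 had the largest, with 37.8, 34.9 and 26.7 RPKM in untreated slt2 cells, against 23.6, 19.7 and 24.2 RPKM in untreated wild-type cells (log2 difference 0.53, SE 0.180, adjusted p = 0.110), and it passed without treated wild-type replicate 3 (adjusted p = 0.0464). ATG13 also lay higher in every untreated slt2 library and ATG11 lower, neither past the threshold, so that 2 ATG genes stood clear of the wild type on the high side (11.3% of all tested genes) and 2 on the low side (23.8%). In ATG1, ATG8 and ATG9 the untreated groups overlapped (log2 differences −0.26, −0.35 and −0.07, adjusted p = 0.368, 0.426 and 0.874). The changes lay above 0 in 8 of 31 ATG genes (40.4% of all tested genes), with a median of −0.09 against −0.08.

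Among treated cells, 1 ATG gene was higher in slt2 than in wild type and 2 were lower, against 3.99% and 4.23% of all tested genes, or 8.21% in either direction (248 higher and 263 lower, or 320 and 228 with median-ratio scaling). ATG5 was higher, at 31.7, 33.3 and 33.8 RPKM in slt2 cells with poacic acid, against 15.5, 26.0 and 22.1 RPKM in wild-type cells with poacic acid (log2 difference 0.64, SE 0.161, limma adjusted p = 0.0241). ATG12 was lower, at 4.99 ± 1.1 RPKM in slt2 cells and 9.25 ± 1.2 RPKM in wild-type cells with poacic acid (SD, n = 3 each; log2 difference −0.78, SE 0.212, limma adjusted p = 0.0347), the same direction as without the compound. ATG27 was lower, at 64.2 ± 6.0 RPKM in slt2 cells and 85.7 ± 8.9 RPKM in wild-type cells with poacic acid (log2 difference −0.41, SE 0.115, limma adjusted p = 0.0413). None of the 3 overlapped between the strains. Over the list, every treated slt2 library lay above every treated wild-type one in 3 ATG genes (8.94% of all tested genes) and below in 3 (14.1%).

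These 3 calls are less secure than those of the slt2 response. With the rRNA share as a covariate 0 of the 3 passed (adjusted p = 0.0812 for ATG5, 0.478 for ATG12 and 0.588 for ATG27), and 0 passed when only the 6 treated libraries were fitted. The covariate fit can hardly tell the share from the strain, as treated slt2 libraries held 5.99 to 6.29% and treated wild-type ones 0.105 to 5.15%. Its log2 difference was larger for ATG5 (0.84), and nearer to 0 for ATG12 (−0.53) and ATG27 (−0.21). The ATG5 call was lost without treated wild-type replicate 1 (adjusted p = 0.0864) and without treated slt2 replicate 1 (0.0649), 2 (0.0834) or 3 (0.0581). The ATG12 call was lost without treated wild-type replicate 1 (adjusted p = 0.0947) or 2 (0.112), untreated wild-type replicate 1 (0.0527), or treated slt2 replicate 1 (0.0632), 2 (0.0550) or 3 (0.102). The ATG27 call was lost with median-ratio scaling (adjusted p = 0.0617) and without 9 of the 12 libraries, all but untreated wild-type replicate 3, treated wild-type replicate 3 and treated slt2 replicate 3, at adjusted p values of 0.0549 to 0.189.

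ATG22 had the lowest difference between treated strains, with 17.4, 21.3 and 8.48 RPKM in slt2 cells with poacic acid, against 21.6, 33.7 and 29.5 RPKM in wild-type cells with poacic acid. The strains did not overlap, but slt2 replicate 3 was far below its group, and the difference of −0.87 (SE 0.306) did not pass (adjusted p = 0.108). ATG19 was higher in every treated slt2 library than in any treated wild-type one (log2 difference 0.52, SE 0.158, adjusted p = 0.0626), and it passed with median-ratio scaling (adjusted p = 0.0144). ATG8 (0.25, adjusted p = 0.626), ATG9 (0.17, adjusted p = 0.677) and ATG1 (−0.09, adjusted p = 0.806) overlapped between the treated strains. Over the list 16 of 31 differences lay above 0 (41.1% of all tested genes), with a median of 0.02 against −0.07 for all tested genes.

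Summed over the 31 genes, ATG transcripts came to 510 ± 50 RPKM in slt2 cells with poacic acid and 395 ± 43 RPKM in untreated slt2 cells, and to 504 ± 53 RPKM in wild-type cells with poacic acid and 404 ± 34 RPKM in untreated wild-type cells (SD, n = 3 each). The treated libraries of each strain all lay above its untreated ones. ATG27, which did not pass with the compound in either strain, was the largest part of each sum.

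RefSeq gives an ATG name to 6 more genes that the table lists under older names, and these fall outside the rule. ATG45, listed as YIL024C (chrIX:308602-309171, minus strand) and described in yeast as a receptor for autophagy of glycogen, had the clearest difference between the strains. It had 13.2, 9.12 and 12.2 RPKM in slt2 cells with poacic acid, against 20.2, 15.6 and 13.1 RPKM in untreated slt2 cells, and the change did not pass (log2 change −0.46, SE 0.182, adjusted p = 0.146). In wild-type cells it had 31.5, 31.6 and 40.4 RPKM with poacic acid, against 12.3, 10.1 and 12.1 RPKM untreated (log2 change 1.50, SE 0.182, limma adjusted p = 0.000198). The responses differed by −1.97 (SE 0.257, slt2 minus wild type, limma adjusted p = 0.000992), and the difference between treated slt2 and treated wild-type cells was −1.51 (adjusted p = 9.67e-05); these 3 calls held in every other fit. Its promoter holds 1 URS1 core, on the opposite strand, and is shown beside those of ATG8 and ATG19 because the 3 genes did not move alike.
ATG45, chrIX:309524-309553, minus strand: ccgttcacggcgGGCGGCctcatatacata

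ATG41, listed as ICY2 and needed for autophagosome formation, had 55.0, 58.3 and 47.6 RPKM in slt2 cells with poacic acid, against 34.7, 37.8 and 26.7 RPKM in untreated slt2 cells. It rose by 0.69 on the log2 scale (SE 0.151, limma adjusted p = 0.0121), a call lost without treated slt2 replicate 1 (0.0532) or 2 (0.0692) or untreated slt2 replicate 3 (0.0717). In wild-type cells it averaged 32.4 ± 4.5 RPKM with poacic acid and 30.7 ± 2.8 RPKM untreated (adjusted p = 0.843), and its responses were not shown to differ (0.62, SE 0.214, adjusted p = 0.211). Among treated cells it was higher in slt2 than in wild type by 0.71 (adjusted p = 0.00835), which did not hold with the rRNA share as a covariate (0.266). ATG42 (YBR139W), a vacuolar carboxypeptidase, averaged 47.7 and 42.2 RPKM in slt2 cells with and without poacic acid and 59.8 and 42.7 RPKM in wild-type cells with and without it. ATG42, the endoplasmic reticulum receptors ATG39 and ATG40, and the mitochondrial fission protein ATG44 passed in no comparison.

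**Figure D5:**
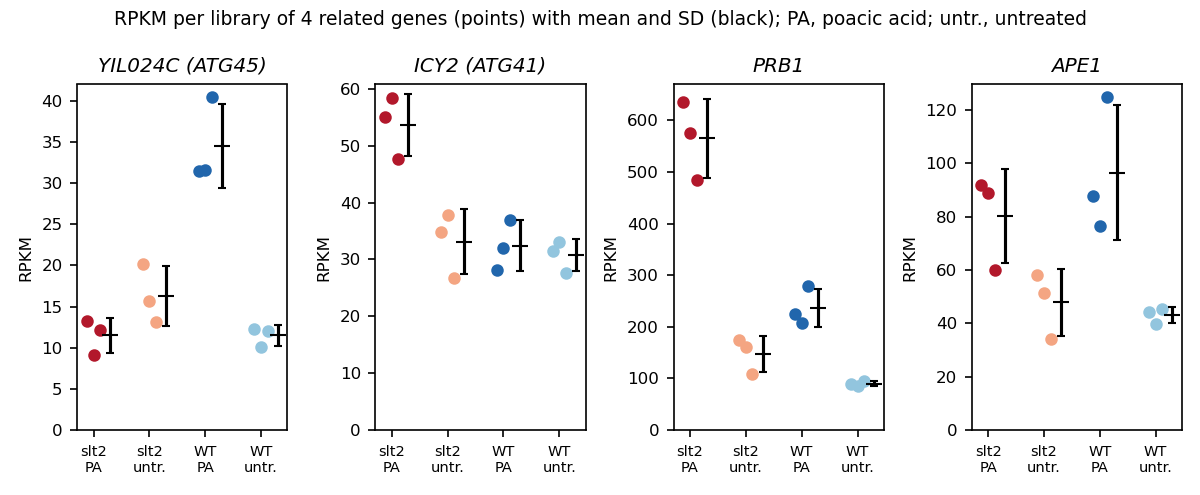
RPKM per library (points) with group mean and SD (black) of ATG45, ATG41, PRB1 and APE1; PA, poacic acid; untr., untreated. ATG45 is highest in wild-type cells with poacic acid (mean 34.5 RPKM), ATG41 is highest in slt2 cells with poacic acid (53.7 RPKM), and PRB1 is higher with the compound in both strains.

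A list of 51 further genes of the pathway was made by their role, with earlier results of these data known. Of these, 5 rose and 0 fell in slt2 cells (5.29% and 3.17% of all tested genes). In wild-type cells 2 rose and 1 fell (5.83% of all tested genes in either direction), so the wild-type count was at the background. The 9 vacuolar hydrolases and cargo enzymes held most of these calls. PRB1, the vacuolar protease B that activates other hydrolases and helps to break down autophagic bodies, had 636, 576 and 484 RPKM in slt2 cells with poacic acid, against 173, 161 and 108 RPKM in untreated slt2 cells (log2 change 1.95, SE 0.172, limma adjusted p = 9.63e-06). In wild-type cells it had 225, 208 and 279 RPKM with poacic acid, against 89.2, 84.8 and 95.4 RPKM untreated (log2 change 1.38, SE 0.172, limma adjusted p = 0.000257). The groups were far apart in both strains. Among treated cells it was higher in slt2 than in wild type by 1.25 (adjusted p = 0.00028, or 0.0537 with the rRNA share as a covariate), while its responses were not shown to differ between strains.

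APE1, the aminopeptidase that Atg19 brings to the vacuole, rose in wild-type cells, with 87.7, 76.6 and 125 RPKM with poacic acid, against 44.1, 39.8 and 45.5 RPKM untreated (log2 change 1.11, SE 0.222, limma adjusted p = 0.00965; 0.0501 without untreated wild-type replicate 2 and 0.113 with the rRNA share as a covariate). In slt2 cells it averaged 80.3 ± 18 RPKM with poacic acid and 47.8 ± 13 RPKM untreated, without passing. Every treated slt2 library (91.9, 89.0 and 60.0 RPKM) nevertheless lay above every untreated one (58.2, 51.2 and 33.9 RPKM). AMS1, the alpha-mannosidase that travels with it, rose in slt2 cells, averaging 18.1 ± 6.9 RPKM with poacic acid and 7.50 ± 2.5 RPKM untreated (log2 change 1.14, SE 0.307, limma adjusted p = 0.0354). CPS1, a vacuolar carboxypeptidase, also rose there (145 ± 7.9 and 103 ± 6.9 RPKM, log2 change 0.49, adjusted p = 0.0167). Both genes also lay higher with the compound in wild-type cells, without overlap and without passing. There AMS1 had 8.62, 14.3 and 16.5 RPKM with poacic acid, against 5.78, 5.18 and 5.49 RPKM untreated. CPS1 had 107, 136 and 111 RPKM in the same treated group, against 99.6, 93.1 and 93.4 RPKM untreated. Of the 51 genes, 0 passed the test of the difference of responses. The AMS1 call was lost without treated slt2 replicate 1 (adjusted p = 0.142) or 2 (0.175), untreated slt2 replicate 2 (0.0537) or 3 (0.160), or untreated wild-type replicate 1 (0.0508). The CPS1 call was lost without treated slt2 replicate 2 (adjusted p = 0.0900) or untreated slt2 replicate 2 (0.0676) or 3 (0.0799).

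None of the 16 genes for the phosphatidylinositol 3-kinase complex, sorting nexins and fusion passed in either strain, including VPS30 (ATG6) and SNX4 (ATG24). Among 10 regulators of ATG transcription, MSN2 rose in slt2 cells (37.9 ± 1.9 RPKM with poacic acid and 28.6 ± 1.6 RPKM untreated, log2 change 0.39, adjusted p = 0.0353). That call was lost without treated slt2 replicate 1 (0.115) or 2 (0.157) or untreated slt2 replicate 1 (0.0571), 2 (0.105) or 3 (0.148). GCN4, the activator of amino acid synthesis, fell in wild-type cells (310 ± 47 RPKM with poacic acid and 426 ± 43 RPKM untreated, log2 change −0.46, adjusted p = 0.0424), a call lost in 14 of 20 other fits, among them those without any 1 library other than treated wild-type replicate 1 and treated slt2 replicate 3. Among treated cells MSN4 was lower in slt2 (7.66 ± 0.41 RPKM) than in wild type (14.1 ± 4.1 RPKM), by 0.76 on the log2 scale (difference −0.76, adjusted p = 0.0450). That call was lost in 14 of 20 other fits too, among them those without any 1 library other than treated wild-type replicate 3, untreated wild-type replicate 3 and untreated slt2 replicate 3. Without the compound MSN4 was also lower in slt2 cells, at 6.35, 7.27 and 8.98 RPKM, than in wild-type cells, at 10.3, 9.27 and 13.6 RPKM. Those groups did not overlap, and the difference did not pass. UME6, which encodes the factor that binds URS1, passed in no comparison. With poacic acid it had 21.7, 26.6 and 25.2 RPKM in slt2 cells, against 21.2, 11.7 and 16.5 RPKM in wild-type cells, without overlap. Untreated it averaged 21.2 ± 2.0 RPKM in slt2 cells and 21.1 ± 1.9 RPKM in wild-type cells.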

How the data were processed

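RNA of 12 yeast libraries was sequenced from depleted total RNA with a strand-specific kit, per the labels' protocols. The deposited table gives RPKM per gene, per the file headers, its decimal commas being converted on reading, and the genome build was R64, per the submitters' processing notes. The sources used here name no aligner or counting program and do not say how strand and multiply mapped reads were treated. The values fitted whole reads within 1% of a read for 95.0 to 95.1% of genes by gene span and 99.7% by coding length, which gave 3462651 to 10542488 reads per library (median 6671236.5). Replicates of a group differed by 4.795 to 101.5 in chi-square per degree of freedom, so none was a copy. The range was 27.07 to 101.5 among treated wild-type libraries and 13.17 to 20.94 among untreated ones. In slt2 cells it was 4.795 to 15.08 with the compound and 7.72 to 16.04 without it.

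From there, genes at 1 RPKM or more in at least 3 libraries (6222 genes, all 31 ATG genes among them) were tested on log2(RPKM + 1) with limma 3.58.1 (R 4.3.3), with an intensity trend, robust variances and a mean for each group, all 12 libraries in 1 fit. Low genes appear to change less on this scale than they do in RPKM. The 4 groups shared 1 estimate of the spread of each gene, so a group with wider scatter had no wider SE of its own. Tests were two-sided, adjusted p is Benjamini-Hochberg corrected over all tested genes, and 0.05 was the threshold. The 5 comparisons were the response in each strain, their difference, and the strain difference without and with the compound. The 2 responses share no library, but the other comparisons reuse the same ones. All 31 ATG genes matched RefSeq by symbol and coordinates in R64, and motifs were searched on both strands of the 500 bases before each start codon. Python 3.11.15, pandas 2.3.3 and matplotlib 3.10.9 were used.

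The members and lists were chosen with earlier results of these data known. Values per library were given for ATG genes past 0.05 in any comparison, ATG1, ATG8 and ATG9, and the largest and smallest change of each comparison. ATG3, ATG33, ATG34 and ATG38 were added after their values were seen. Up to 4 further pathway genes per comparison with the smallest adjusted p were named. A further gene of that list is counted but not reported here. Per the series' design text each biological sample was run without and with the compound, so replicate numbers pair libraries within a strain. Deviations of paired libraries from their group means correlated at −0.136 to 0.335. The alternatives were pseudocounts of 0.1 and 5, no filter, median-ratio scaling, only the groups compared, a block (the biological sample for responses, the replicate number for strain differences), plain variances and leaving out each library. A fit with the rRNA share as a covariate was chosen after seeing the data.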

Additional observations from a re-analysis of the deposited data

Results flagged for a closer look

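The response of ATG45 (YIL024C) to poacic acid differed between the strains, by the test of the difference itself. Its log2 change was −0.46 in slt2 cells and 1.50 in wild-type cells, a difference of −1.97 (SE 0.257, limma adjusted p = 0.000992). All 3 treated slt2 libraries (9.12 to 13.2 RPKM) lay below all 3 treated wild-type libraries (31.5 to 40.4 RPKM). Over the other fits the difference stayed between −2.10 and −1.62, with adjusted p values of 0.000567 to 0.00399. ATG45 was found by its RefSeq name after the table was opened and is not among the 31 genes.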

How the results depend on the processing

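The calls of ATG5, ATG8 and ATG19 in slt2 cells held in all 20 other fits, and so did those of PRB1 in both strains. The number of ATG genes called in slt2 cells was 5 with median-ratio scaling, the replicate block, plain variances or the rRNA covariate, and 3 to 5 leaving out 1 library. In wild-type cells it was 4 with the block and 1 with the covariate (0 to 2 leaving out 1 library). For treated strains it was 0 with only the treated groups, 1 with the replicate number as a block and 0 with the covariate (0 to 3), and for the difference of responses and for untreated strains 0 to 1 each. Leaving out 1 library, the median difference of responses ran between 0.027 (without untreated slt2 replicate 3) and 0.24 (without treated wild-type replicate 2).

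Counts over all tested genes moved more. In wild-type cells the 363 calls became 181 with only those groups, 671 with the block, 155 with the covariate and 156 to 552 leaving out 1 library (fewest without untreated replicate 2, most without treated replicate 2). In slt2 cells the 526 became 231 (without treated replicate 2) to 671 (without treated replicate 3). The 107 differences of responses became 179 with the block and 62 to 164 leaving out 1 library. The 109 untreated strain differences became 729 with only those groups, 31 with plain variances, 1 with the covariate and 3 to 604 leaving out 1 library. The 511 treated strain differences became 330 with only those groups, 182 with the covariate and 327 to 874 leaving out 1 library.

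Untreated ATG strain differences above 0 numbered 14 with median-ratio scaling, 21 with the covariate and 7 to 14 leaving out 1 library, and the ATG median became 0.12 untreated and 0.18 treated with the covariate. Signs that turned were all of uncalled values. For ATG9 between untreated strains they were 0.0021 with median-ratio scaling, 0.022 with the covariate and −0.20 to 0.090 leaving out 1 library, and between treated strains −0.024 to 0.29 leaving out 1 library. For ATG1 between treated strains they were 0.21 with the covariate and −0.18 to 0.057 leaving out 1 library. With the covariate, ATG31 in wild-type cells became 0.24, and between untreated strains ATG1 became 0.18, ATG8 0.029 and ATG15 −0.018. The cause of these shifts was not tested. Between strains the block joins libraries that share only a number (correlations of −0.164 to 0.0996 between their deviations, each the best match of the other in 2 of 6 pairs). There it left ATG5 past the threshold (adjusted p = 0.0391) but not ATG12 (0.0560), ATG27 (0.0689) or MSN4 (0.0738). Besides the calls given in the report, the block by biological sample changed no other call among the recomputed gene results. Median-ratio scaling shifted the median of all genes by at most 0.076 on the log2 scale, and the lowest ATG genes are limited by depth, ATG10 at 1 to 11 reads a library.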
